A study of Mus musculus with 6 samples.

Results

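The enzymes that supply and guard the DNA building blocks were examined in mouse hematopoietic stem cells with and without Mcph1. They are 7 genes chosen by name: the ribonucleotide reductase subunits Rrm1, Rrm2 and Rrm2b, the thymidylate enzymes Tyms and Tk1, and the uracil enzymes Dut and Ung. Each had 1 row among the 11108 listed genes, and all 7 passed the filter on low values. RNA-seq compared 3 wild-type (WT) libraries with 3 Mcph1-/- libraries, and the labels name no treatment, age or strain. Each library was made with Smart-seq2, which copies full-length transcripts of very small inputs, from 200 bone marrow cells sorted as Lineage-, Sca-1+, c-Kit+, CD34- and CD150+. The deleted part of Mcph1, which encodes the chromosome condensation regulator microcephalin, is not stated in the sources used. The p-values below set the difference between genotypes against the scatter among these libraries. As separate mice are not named, that scatter may be technical.

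Ribonucleotide reductase turns ribonucleotides into deoxynucleotides and is built from the large subunit Rrm1 and a small subunit. The small subunit of S phase is Rrm2, which is made in dividing cells and destroyed around mitosis, while Rrm2b is the p53-inducible small subunit that serves repair and mitochondrial DNA in cells outside S phase. Thymidylate is made from dUMP by Tyms or salvaged from thymidine by Tk1. Dut removes dUTP and thereby makes dUMP, and Ung cuts out uracil that has entered DNA. Adult stem cells of this sort are known to be mostly quiescent, a state in which little deoxynucleotide is needed.

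Sequence before the start site was available for 6 of the 7 genes (RefSeq, GRCm38.p6). It is shown for the subunit with the largest difference between genotypes, Rrm2, and for its partner Rrm1. The runs read 5′ to 3′ on the plus strand, at chr12:24708004-24708240 for Rrm2 and chr7:102441445-102441694 for Rrm1. Each run stops where the annotated exon begins, which leaves 237 of the 250 bases for Rrm2. Capitals mark CCAAT, the letters bound by the factor NF-Y.
Rrm2: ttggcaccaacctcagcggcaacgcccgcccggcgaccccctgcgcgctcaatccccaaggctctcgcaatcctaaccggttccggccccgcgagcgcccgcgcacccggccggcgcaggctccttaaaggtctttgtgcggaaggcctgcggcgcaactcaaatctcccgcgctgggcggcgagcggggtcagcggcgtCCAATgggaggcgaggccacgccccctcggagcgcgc
Rrm1: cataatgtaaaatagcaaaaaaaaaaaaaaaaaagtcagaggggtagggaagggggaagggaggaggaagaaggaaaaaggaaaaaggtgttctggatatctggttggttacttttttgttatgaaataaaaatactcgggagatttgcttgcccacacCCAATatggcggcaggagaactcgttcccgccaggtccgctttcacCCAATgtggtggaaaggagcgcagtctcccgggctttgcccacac
The search covered all 250 bases before the RefSeq start of each of the 6 genes, annotated exon included. CCAAT or its reverse complement occurred at 1 place for Rrm2, 50 bases before the start. It occurred at 91 and 45 bases before the start for Rrm1 and not in the windows of Tyms, Tk1, Dut or Ung. Such a match was held by 33.8% of the 32851 RefSeq windows of this length. A set of 6 E2F-like octamers (TTTGGCGC, TTTCGCGC, TTTCCCGC, TTTGGCGG, TTTCCCGG and TTTGCCGC, either strand) had no match in any of the 6 windows and was held by 3.22% of all windows. These matches describe letters only, and no binding was measured.

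Libraries held 8102605 to 8655123 recovered reads in WT and 9464810 to 10455908 in Mcph1-/-, with reads for 10209 to 10335 and 10516 to 10777 of the listed genes. The normalised read count of Mcph1 itself was 160.5, 341.0 and 34.4 in WT replicates 1 to 3 and, in the same order, 427.8, 37.7 and 233.9 in the Mcph1-/- replicates, which does not separate the labels. Genotypes are therefore named as the labels give them. Of 14 stem cell markers all 14 were read, with summed levels of 19909 to 25682 in WT and 16673 to 18432 in Mcph1-/-. Transcripts of the sort markers Kit and Ly6a (Sca-1) were present in every library, at 1116 or more, whereas Slamf1 (CD150) had 0 reads in WT replicate 1 and 1 read in Mcph1-/- replicate 3. Cd34 transcript was read in every library, at 200.9 to 569, although the cells were gated as CD34-.

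Of the 7 genes, 6 had a higher mean log2 level in Mcph1-/-, and 53.8% of all 10846 tested genes did. Rrm2 and Dut had the smallest p-values, and Rrm2b was the 1 gene with a lower mean. No gene of the 7 passed the threshold over all genes by limma-trend (adjusted p of 0.592 to 0.876), a test that called 0.0369% of all genes. At an unadjusted p under 0.05, 2 of the 7 were higher, against 4.16% of all genes, and 0 were lower, against 3.55%. The 3 libraries of Mcph1-/- all lay above the 3 of WT for 1 of the 7, Rrm2, and such a gap was seen for 7.4% of all genes. None of the 7 had the opposite gap, which 6.8% of all genes had. The median log2 fold change (Mcph1-/- over WT, difference of mean log2(value + 1)) of the 7 was 0.94, and that of all tested genes was 0.08. Among other tools edgeR called 0 of the 7 (0.0184% of all genes) and limma-voom 0 (0.00922%), while DESeq2 called 1, Rrm2 (2.23% of the 10665 genes to which it gave an adjusted p).

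**Figure D1:**
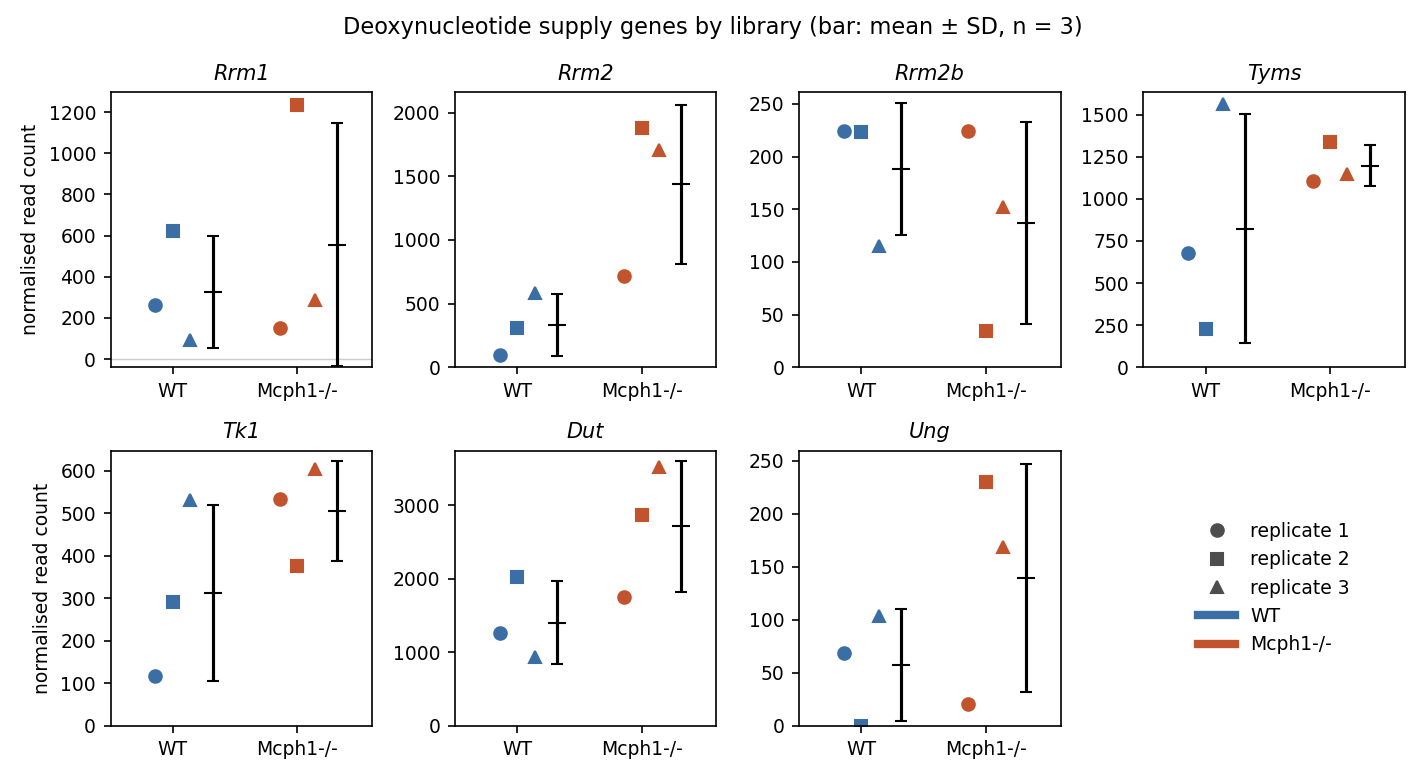
Normalised read count of each gene (vertical axes, linear) in the 3 WT and 3 Mcph1-/- libraries, with replicate numbers by marker shape and the mean ± SD beside the points. Rrm2 alone has all Mcph1-/- libraries (720 to 1883) above all WT libraries (97.6 to 586).

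The S phase subunit Rrm2 (ENSMUSG00000020649; mm10 chromosome 12, 24708241 to 24714146, plus strand) stood at 97.6, 305.0 and 586 in WT replicates 1 to 3. In Mcph1-/- replicates 1 to 3 it stood at 720, 1883 and 1708. The lowest Mcph1-/- library was above the highest WT library by less than the spread within either group, and the WT libraries themselves were widely spread. Group means were 329.6 ± 245 and 1437 ± 627 (SD, n = 3), a ratio of 4.36. By limma-trend the log2 fold change was 2.34 (SE 0.68, 95% interval 0.77 to 3.91) with a limma adjusted p of 0.592, and it ranked 156 by p among all tested genes. DESeq2 on the recovered reads gave 2.12 (SE 0.60, adjusted p = 0.026) and edgeR 2.16 (adjusted p = 0.803). As the groups did not overlap, leaving out 1 library could not turn the direction of Rrm2. The log2 fold change then ranged from 1.64 without WT replicate 1 to 2.93 without WT replicate 3. Stretches of 419 and 193 bases match the processed pseudogenes Gm48455 and Gm48445, neither of which has a row among the listed genes.

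Rrm1 (ENSMUSG00000030978; chromosome 7, 102441695 to 102469771, plus strand), the large subunit that every form of the enzyme needs, did not follow Rrm2. Its values were 261, 623 and 91.1 in WT replicates 1 to 3 and, in the same order, 149.6, 1234 and 286.6 in the Mcph1-/- replicates. The groups overlapped, and the high mean of Mcph1-/- rested on replicate 2. Its log2 fold change was 0.61 (SE 0.96; limma adjusted p = 0.876). It was -0.25 without Mcph1-/- replicate 2 and -0.10 without WT replicate 3, so that no direction can be given.

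Rrm2b (ENSMUSG00000022292; chromosome 15, 37923952 to 37961318, minus strand), the small subunit outside S phase, had a near-constant level in 3 libraries and lower values in the others. It stood at 224.5, 223.6 and 115.4 in WT replicates 1 to 3 and, in the same order, at 224.4, 34.5 and 151.8 in the Mcph1-/- replicates. WT replicates 1 and 2 and Mcph1-/- replicate 1 were thus nearly equal, and the lowest value, 42 reads, came from Mcph1-/- replicate 2, the library with the highest Rrm2 and the highest Rrm1. The log2 fold change was -0.76 (SE 0.98, 95% interval -3.01 to 1.497; limma adjusted p = 0.845), and it was 0.04 without Mcph1-/- replicate 2. Rrm2b shares 734 exonic bases with the antisense gene Gm49085, and as the counting is not stated to use strand, reads of the pair cannot be told apart. The processed pseudogene Gm8616 also holds 1051 bases of the transcript at 96.1% identity.

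The S phase subunit was set against Rrm2b within each library. The difference log2(Rrm2 + 1) minus log2(Rrm2b + 1) was -1.19, 0.45 and 2.33 in WT replicates 1 to 3 and, in the same order, 1.68, 5.73 and 3.48 in the Mcph1-/- replicates. WT replicate 3 lay above Mcph1-/- replicate 1, so the groups overlapped. The mean difference was 0.53 ± 1.77 for WT and 3.63 ± 2.03 for Mcph1-/- (SD, n = 3), a shift of 3.10 that did not pass (two-sided exact permutation p = 0.2; adjusted over 5 gene pairs, p = 1; the smallest p for 3 against 3 libraries is 0.1). Leaving out 1 library gave shifts of 2.05 to 4.08. Per kb of exon, the Rrm2 level was 1.43, 4.50 and 16.7 times that of Rrm2b in WT replicates 1 to 3 and 10.6, 180.1 and 37.1 times in Mcph1-/- replicates 1 to 3. With the length of the principal transcript, a choice made after the data were seen, the ratio was 0.904 in WT replicate 1 and 2.84 or more in the other libraries.

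**Figure D2:**
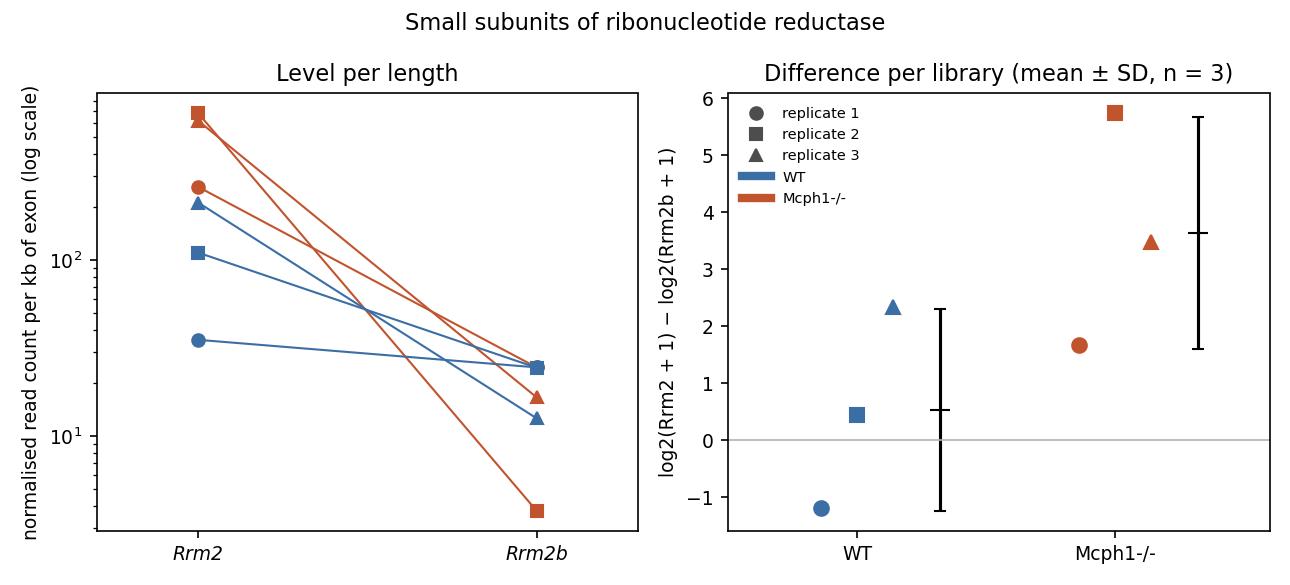
Left, normalised read count per kb of exon of Rrm2 and Rrm2b (log axis), joined within each library. Right, the log2 difference of the pair per library with mean ± SD. The 3 Mcph1-/- libraries lie at 1.68 to 5.73 and the WT libraries at -1.19 to 2.33, so the groups overlap.

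The other 4 pairs did not separate the genotypes either. Rrm2 minus Rrm1 shifted by 1.74 (two-sided exact permutation p = 0.4) and Rrm1 minus Rrm2b by 1.37 (p = 0.7). Tyms minus Tk1, synthesis against salvage of thymidylate, shifted by 0.03 (exact permutation p = 1). Dut minus Ung, removal of dUTP against removal of uracil from DNA, shifted by -1.31 (exact permutation p = 0.9). All 4 exact p-values were 1 after adjustment over the 5 pairs. The Rrm2 to Rrm1 level per kb ranged from 1.48 to 25.6 in WT and from 6.06 to 23.7 in Mcph1-/-, and WT replicate 3 and Mcph1-/- replicates 1 and 3 had similar ratios.

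Of the thymidylate enzymes, Tyms (ENSMUSG00000025747; chromosome 5, 30058202 to 30073617, minus strand), which methylates dUMP, had groups that overlapped. It stood at 678, 225.6 and 1564 in WT replicates 1 to 3 and, in the same order, at 1107, 1336 and 1149 in the Mcph1-/- replicates. The Mcph1-/- libraries lay close together inside the WT range, with an SD of the log2 level of 0.14 against 1.40 in WT. Rrm2, Tk1, Dut and Ung also had the smaller SD of the log2 level in Mcph1-/-, while Rrm1 and Rrm2b had the larger. These differences in spread were not tested. Its log2 fold change was 0.94 (SE 0.62; limma adjusted p = 0.701), 1.61 without WT replicate 3 and 0.21 without WT replicate 2. Stretches of the Tyms transcript of at least 150 bases match transcripts of 27 other genes at 95% identity or more, so reads from those stretches are uncertain.

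Tk1 (ENSMUSG00000025574; chromosome 11, 117815526 to 117826092, minus strand), the cytosolic thymidine kinase of S phase, stood at 117.1, 290.5 and 530.4 in WT replicates 1 to 3. It stood at 535, 376.5 and 604 in Mcph1-/- replicates 1 to 3. Across the WT libraries Tk1 had the order of Rrm2, lowest in replicate 1 and highest in replicate 3, while in Mcph1-/- its lowest library was replicate 2, where Rrm2 was highest. The fitted difference on the log2 scale was 0.91 (SE 0.62; limma adjusted p = 0.706). It was 0.34 without WT replicate 1 and 1.42 without WT replicate 3. Tk1 shares 83 exonic bases with the gene Afmid on the other strand (means 103.4 in WT and 15.7 in Mcph1-/-), and the processed pseudogene Gm6091 holds a stretch of 165 bases at 99.4% identity.

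Of the uracil enzymes, Dut (ENSMUSG00000027203; chromosome 2, 125247190 to 125258608, plus strand), the dUTP pyrophosphatase, was the most abundant of the 7 and had the smallest SE. It stood at 1256, 2024 and 931 in WT replicates 1 to 3 and, in the same order, at 1755, 2866 and 3520 in the Mcph1-/- replicates. WT replicate 2 lay above Mcph1-/- replicate 1, and in 8 of the 9 pairs of a Mcph1-/- and a WT library the former was higher. Means were 1404 ± 561 and 2714 ± 892 (SD, n = 3), a ratio of 1.93. The log2 fold change was 0.97 (SE 0.36, 95% interval 0.14 to 1.79; limma unadjusted p = 0.027, adjusted p = 0.626), and with 1 library left out it ranged from 0.71 to 1.27. The limma unadjusted p was 0.065 without WT replicate 1, 0.008 without WT replicate 2 and 0.092 without WT replicate 3. Without Mcph1-/- replicates 1 to 3 in turn, the limma unadjusted p was 0.0099, 0.075 and 0.102.

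Ung (ENSMUSG00000029591; chromosome 5, 114130386 to 114139323, plus strand), the uracil-DNA glycosylase, had the lowest mean of the 7 in WT. It stood at 68.3, 0 and 103.3 in WT replicates 1 to 3 and, in the same order, at 20.1, 229.7 and 168.7 in the Mcph1-/- replicates. The 0 in WT replicate 2 allows up to 3 reads, a normalised read count of 3.09, and covers counting error only. The log2 fold change was 2.28 (SE 2.10; limma adjusted p = 0.770) and 0.14 without WT replicate 2, while the means of 57.2 and 139.5 have a ratio of 2.44. The groups overlapped, and the libraries of either genotype differed widely from one another.

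**Figure D3:**
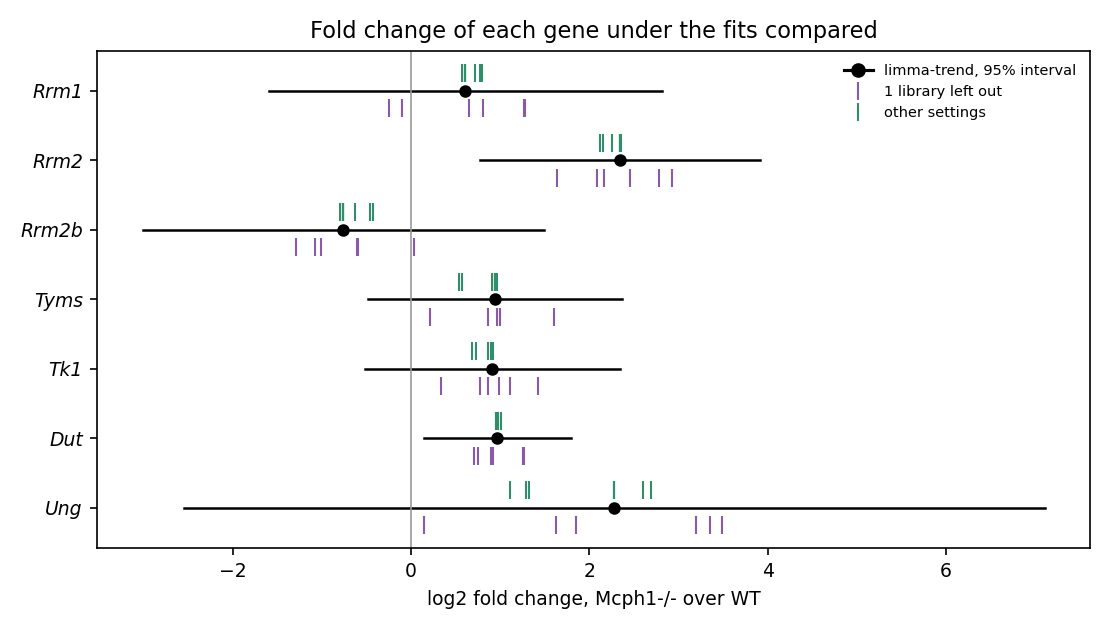
Log2 fold change (Mcph1-/- over WT, horizontal axis) of each gene by limma-trend with its 95% interval, with ticks below for fits that leave out 1 library and ticks above for other tools, filters and added constants. The intervals of Rrm2 (0.77 to 3.91) and Dut (0.14 to 1.79) lie above 0 before adjustment, and fits without 1 library cross 0 for Rrm1 and Rrm2b.

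Levels of different genes were compared per kb of annotated exon. In WT the order from high to low was Dut (582 ± 233, SD, n = 3), Tyms (135.1 ± 112), Rrm2 (118.9 ± 88.5), Tk1 (60.2 ± 39.9), Rrm1 (29.5 ± 24.7), Rrm2b (20.6 ± 6.87) and Ung (10.5 ± 9.60). Only Dut stood clear of its neighbour, and every other neighbouring pair overlapped between libraries. In Mcph1-/- the order was Dut (1126 ± 370), Rrm2 (519 ± 226), Tyms (196.6 ± 20.1), Tk1 (97.2 ± 22.5), Rrm1 (50.6 ± 53.6), Ung (25.5 ± 19.7) and Rrm2b (14.99 ± 10.5). There the ranges of Dut, Rrm2, Tyms and Tk1 were apart from one another, and those of Tk1, Rrm1, Ung and Rrm2b overlapped between neighbours. Divided by the principal transcript, Rrm2 came after Tk1 in WT, the ranges of Dut and Tyms overlapped, and in Mcph1-/- only Dut and Rrm2 were apart from each other.

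The partner genes of the pathway were read from lists, and none of their members passed over all genes by limma-trend. Over all tested genes 53.8% were higher, and at an unadjusted p under 0.05 4.16% were higher and 3.55% lower. The list of deoxynucleotide control, thymidylate and pyrimidine salvage had 27 tested genes of 31, with 18 higher, 9 lower and a median log2 fold change of 0.40, or 0.21 without WT replicate 2. At an unadjusted p under 0.05, 4 were higher and 1 lower. Dctd, which deaminates dCMP to the dUMP that Tyms uses, had the smallest p, at 411, 307.0 and 215.6 in WT replicates 1 to 3 and, in the same order, 1273, 608 and 1420 in the Mcph1-/- replicates. The groups did not overlap for Dctd (log2 fold change 1.78, SE 0.46; limma adjusted p = 0.550). The next were the nucleoside diphosphate kinase Nme1 (0.50, SE 0.16), the mitochondrial deoxyguanosine kinase Dguok (-0.51, SE 0.20) and the uridine-cytidine kinase Uck2 (1.18, SE 0.47). The next 2 partners were added after their values were seen: the dTMP kinase Dtymk (0.11, SE 0.29) and Samhd1, which breaks down deoxynucleotides (-0.13, SE 0.32).

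Synthesis of UMP and purines had 19 tested genes of 19, with 14 higher, 5 lower and a median of 0.31. At an unadjusted p under 0.05, 2 were higher and 1 lower. The CTP synthase Ctps2 had a log2 fold change of -0.77 (SE 0.24), the purine enzymes Gart 1.04 (SE 0.45) and Paics 0.41 (SE 0.23). Impdh1, which commits IMP to guanine nucleotides, had 0 reads in 2 WT libraries and averaged 11.8 there, against 175.9 for Mcph1-/-. Uracil and base excision repair had 15 tested genes of 20, with 8 higher, 7 lower and a median of 0.14 without a steady sign. It was -0.13 by edgeR, -0.16 by DESeq2, -0.15 without WT replicate 1, -0.13 without WT replicate 3, -0.08 without Mcph1-/- replicate 3 and up to 0.42 with another library left out. Its smallest p-values went in opposite directions, for the strand break sensors Parp1 (1.63, SE 0.48) and Parp2 (-0.60, SE 0.19). The thymine and uracil glycosylase Tdg (2.33, SE 1.70) and the glycosylase Neil1 (-2.65, SE 1.97, 0 reads in 1 Mcph1-/- library) followed.

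Rrm2b is a known p53 target, and the p53 target list had 15 tested genes of 22, with 8 higher, 7 lower, a median of 0.03 and 0 at an unadjusted p under 0.05. Its smallest p-values were those of Btg2 (means 92.6 in WT and 66.2 in Mcph1-/-, 0 reads in 2 Mcph1-/- libraries and 198.5 in the third), Sesn1 (-0.54, SE 0.35), the apoptosis gene Bax (0.27, SE 0.27) and the polymerase gene Polk (1.99, SE 2.17, 0 reads in 1 WT library). Its median was -0.40 without Mcph1-/- replicate 3 and 0.48 without WT replicate 1. The list of regulators of the reductase and of Tk1 had 16 tested genes of 18, with 11 higher, 5 lower and a median of 0.29, or 0.02 without WT replicate 3. It was led by the checkpoint kinase Chek1 (means 28.2 in WT and 226.6 in Mcph1-/-, 0 reads in 2 WT libraries), Cdc20, an activator of the anaphase-promoting complex (2.95, SE 1.39), the checkpoint kinase Atr (3.66, SE 1.96, 0 reads in 1 WT library) and the NF-Y subunit Nfya (-2.06, SE 1.87).

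**Figure D4:**
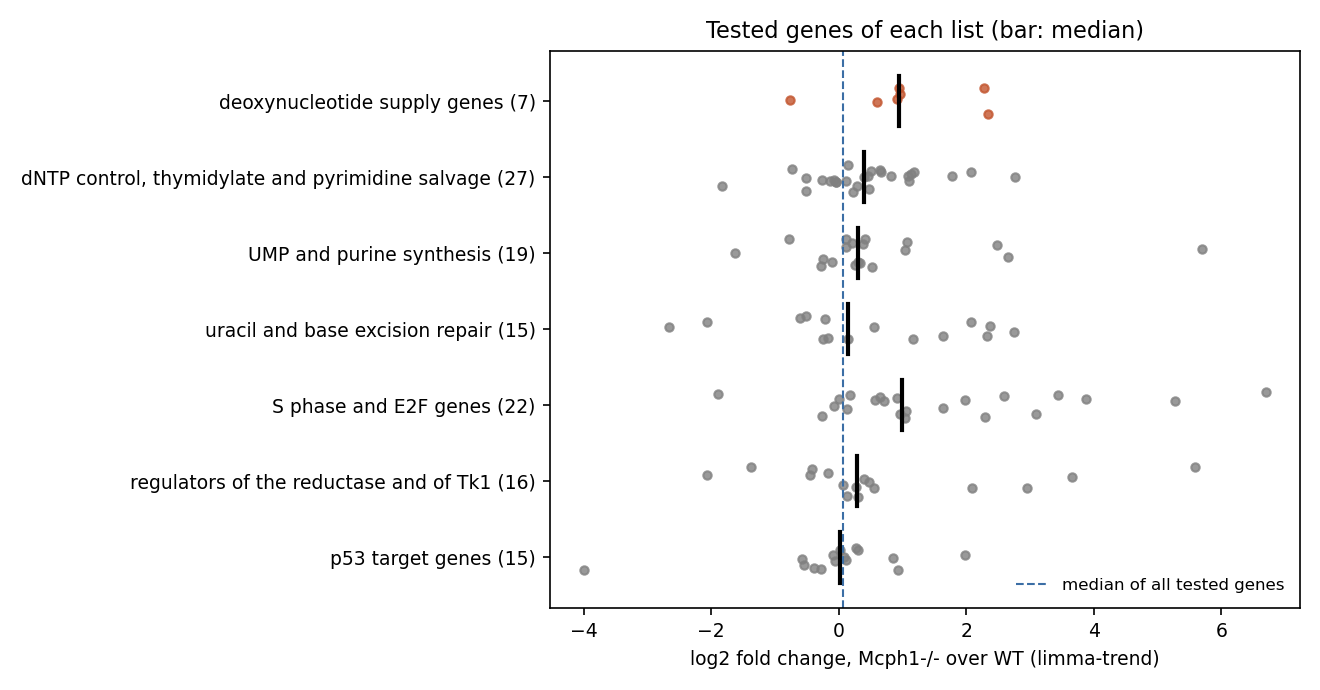
Log2 fold change (horizontal axis) of every tested gene of each list, with the number of genes in brackets, a bar at the list's median and a dashed line at the median of all tested genes (0.08). The medians are 0.94 for the 7 genes, 0.9998 for the S phase list and 0.03 for the p53 list.

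The summed level of S phase genes was higher in every Mcph1-/- library than in any WT library, as was Rrm2. The S phase and E2F list had 22 tested genes of 27, with 19 higher (53.8% of all tested genes were), 3 lower and a median of 0.9998. At an unadjusted p under 0.05, 5 were higher and 0 lower, against 4.16% and 3.55% of all tested genes. The summed level of the list was 11707, 10994 and 9597 in WT replicates 1 to 3 and, in the same order, 18234, 17847 and 19664 in the Mcph1-/- replicates. Within WT, Rrm2 and Tk1 had the opposite order to that sum, highest in replicate 3 where the sum was lowest. Its smallest p-values belonged to the helicase subunit Mcm6 (log2 fold change 1.04, SE 0.22), the cyclin Ccna2 (1.98, SE 0.49), the loading factor Cdc6 (means 34.0 in WT and 504 in Mcph1-/-, 0 reads in 2 WT libraries) and the histone mRNA binding protein Slbp (0.96, SE 0.34). Of the 10 markers of dividing cells none passed over all genes by limma-trend, and 5 were higher at an unadjusted p under 0.05, with sums of 3584 to 5270 in WT and 8059 to 11375 in Mcph1-/-.

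**Figure D5:**
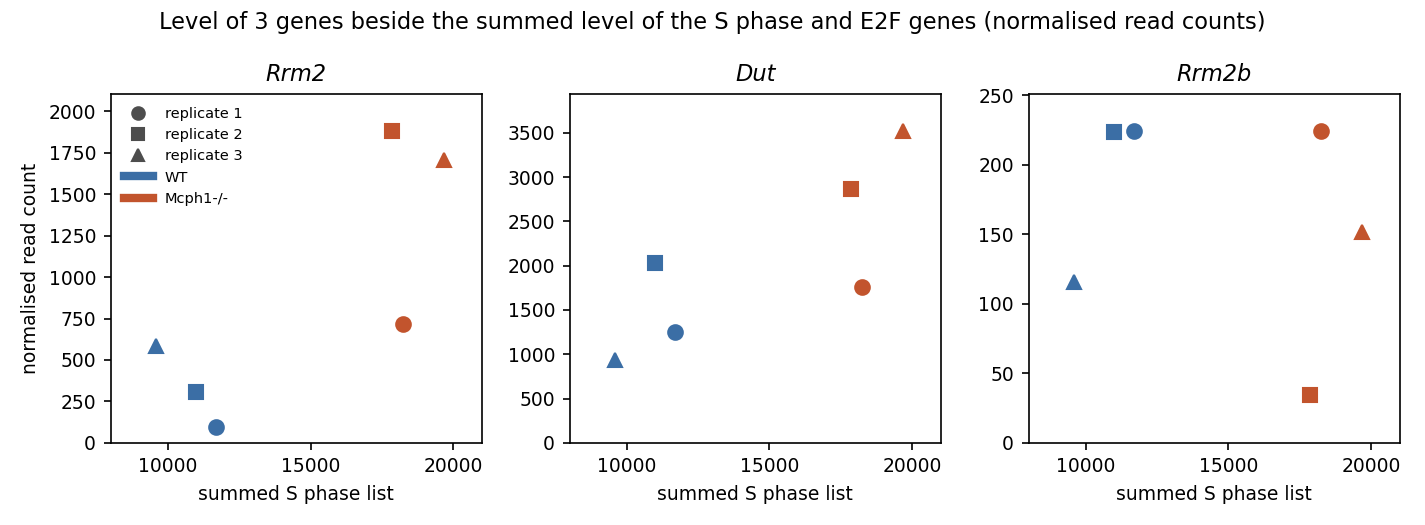
Normalised read count of Rrm2, Dut and Rrm2b (vertical axes) beside the summed normalised read count of the S phase and E2F list (horizontal axis) in each library. The sums are 9597 to 11707 in WT and 17847 to 19664 in Mcph1-/-, and within a genotype Rrm2 does not follow them.

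Markers of other cell types moved with the genotypes as well, and their part in the values above was not tested. Of 9 neutrophil markers 7 were tested, 6 of them lower in mean log2 level, and their sum was 58564 to 67847 in WT and 3287 to 18724 in Mcph1-/-. Among them S100a8, Ngp and S100a9 passed over all genes, and Camp was also lower in every Mcph1-/- library than in any WT library. Elane, Prtn3 and Mpo overlapped between genotypes, with log2 fold changes of -1.58 (SE 3.74), -0.37 (SE 0.42) and 1.45 (SE 3.61). Elane counted as lower on the log2 scale only. It had 0 reads in 1 Mcph1-/- library but stood at 8095 in another, above the WT maximum of 3614. Of 11 erythroid markers 7 were higher, with sums of 4633 to 22251 in WT and 31378 to 39522 in Mcph1-/-. Car1 passed over all genes and made up most of the Mcph1-/- sum, with a mean of 2724 in WT and 28530 in Mcph1-/-. Blvrb, Klf1 and Gata1 were also higher in every Mcph1-/- library than in any WT library, a gap that 7.4% of all tested genes had. Their log2 fold changes were 0.92, 2.40 and 5.11, none passed over all genes, and Gata1 had 0 reads in 1 WT library. The globin genes Hba-a1, Hba-a2 and Hbb-bs were instead lower in every Mcph1-/- library than in any WT library, with log2 fold changes of -3.40, -3.27 and -5.03. They did not pass over all genes, and 6.8% of all tested genes had such a gap. The globin gene Hbb-bt had no gap, at 13.4 to 256.1 in WT and 43.8 to 86.6 in Mcph1-/- (log2 fold change 0.14, SE 1.45). The 2 tested of 5 monocyte and macrophage markers were lower, with sums of 7561 to 12364 and 4400 to 4695. Sums of the megakaryocyte, B cell, and T and NK cell markers overlapped between genotypes. Of these, Pax5, Ighm, Cd3e, Cd3g, Cd3d, Cd4 and Cd8a have no row among the listed genes. Cd48, which is low on the most primitive stem cells, had values of 2.17, 119.5 and 101.2 in WT replicates 1 to 3 and, in the same order, 296.5, 1153 and 514 in the Mcph1-/- replicates (log2 fold change 4.05, SE 1.48; limma adjusted p = 0.626). In these bulk samples, a change in the number of cells in S phase and a change in RNA per cell cannot be told apart.

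The 7 genes also differed in how alike their patterns were over the 6 libraries, given here as Pearson correlations of log2(value + 1) without a test. Rrm2 was closest to Tk1 (r = 0.83) and Dut (0.66), less close to Rrm1 (0.23), and opposite to Rrm2b (-0.64). Tyms was closest to Ung (0.89), both being low in WT replicate 2. Among all genes whose mean value was 50 or more, the 5 most like Rrm2 were the cargo receptor gene Cnih1 (0.993), the transcription factor gene Tcf4 (0.993), the glycolytic gene Gapdh (0.993), the cytochrome c gene Cycs (0.992) and ENSMUSG00000043858 (0.992), which has no symbol. Gapdh was read at only 24.9 to 129.6, and Gapdh and Cycs have many processed copies in the genome that the counting could split. The 5 most like Rrm2b were Trappc12 (0.990), Anxa2 (0.986), Gpd1l (0.985), Map3k4 (0.984) and Appl2 (0.980), all lowest in Mcph1-/- replicate 2.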

How the data were processed

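Libraries of 200 sorted cells were read as 150-bp pairs (labels' protocols). Software listed by the submitters' processing notes comprises Trim Galore 0.6.6 for trimming, then HISAT2, featureCounts and DESeq2, with build mm10. Neither the annotation release nor the strand setting is stated in the sources used. The deposited values are a signal: gene read counts that the authors divided by 1 size factor per library (0.922 to 1.22). The values themselves show it, since 100% equal a whole number of reads times the library's step, within 0.001 reads. Every listed gene has reads in at least 4 libraries.

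The 10846 genes averaging 10 or more were fitted by limma-trend 3.58.1 to log2(value + 1) with a genotype coefficient alone. P-values were adjusted by the Benjamini-Hochberg method at 0.05. limma-voom, edgeR 4.0.16 and DESeq2 1.42.0 were run on the recovered whole reads. Gene pairs were compared by exact permutation (SciPy 1.17.1). All gene tests were tested on simulated reads of 10717 genes. False calls there numbered 120 by DESeq2, 1 by limma-trend, 0 by limma-voom and 2 by edgeR. The simulated scatter was estimated over all 6 libraries without regard to genotype. How many planted changes each test recovered is not reported here. Whether the false calls bear on the call of Rrm2 by DESeq2 was not tested. The 7 genes and the gene lists were chosen with earlier results of these data known. Named from each list were genes past the threshold, otherwise the 4 with the smallest p. Positions and exon lengths come from GENCODE vM21 (mm10). Near-identical copies were searched among its transcripts (at least 150 bases, 95% identity). Protein sequences were not used here. Some members of the lists are not reported here.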

Additional observations from a re-analysis of the deposited data

How the results depend on the processing

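Each of the 7 fold changes was recomputed under 14 alternatives, 98 values in all. In 94 the direction and the side of the threshold did not change. The other filters on low values and the replicate block cannot alter a fold change here, so under them only the side of the threshold could change. Rrm2 passed the threshold by DESeq2 (2.12, adjusted p = 0.026), against adjusted p-values up to 0.858 in the others, and the cause was not tested. The direction turned for Rrm1 without WT replicate 3 (-0.10) and without Mcph1-/- replicate 2 (-0.25), and for Rrm2b without Mcph1-/- replicate 2 (0.039). With 1 library left out Rrm1 ranged from -0.25 to 1.28 and Rrm2b from -1.295 to 0.039. Over all genes limma-trend called 4, limma-voom 1, edgeR 2 and DESeq2 238, and with 1 library left out 1 to 4. The count of the 7 at an unadjusted p under 0.05 was 2, and 1 to 3 with 1 library left out. The shift of Rrm2 against Rrm2b stayed between 2.05 and 4.08.

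No sign of pairing by replicate number was seen over genes, and the labels do not say whether same-numbered libraries belong together. Deviations from the group means of same-numbered libraries correlated at -0.01, 0.02 and -0.03 over genes, and of the WT libraries only replicate 2 correlated best with its own number. With a replicate block 3 genes were called. The SE of Rrm2 was then 0.43, against 0.68 without the block, with a limma unadjusted p of 0.0014 and an adjusted p of 0.7001. In pairs by replicate number, the shift of Rrm2 against Rrm2b was 3.10 (exact sign-flip p = 0.25, the smallest that 3 pairs allow). With 3 libraries a genotype, 42 reads of Rrm2b in 1 library and 0 of Ung in another, small differences in these genes were not detectable.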
